A study of Homo sapiens with 8 samples.

Results

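The genes described here are 10 transcriptional outputs and feedback regulators of the ERK kinase cascade: the phosphatases DUSP4, DUSP5 and DUSP6, the Sproutys SPRY1, SPRY2 and SPRY4, the Sprouty-related SPRED1 and SPRED2, and the ETS-family transcription factors ETV4 and ETV5. They were chosen by name, and all 10 of 10 matched 1 Ensembl identifier each among the 57736 listed in every file. In the GENCODE annotation they lie on 10 different chromosomes: SPRED2 (ENSG00000198369) on 2, ETV5 (ENSG00000244405) on 3, SPRY1 (ENSG00000164056) on 4, SPRY4 (ENSG00000187678) on 5, DUSP4 (ENSG00000120875) on 8, DUSP5 (ENSG00000138166) on 10, DUSP6 (ENSG00000139318) on 12, SPRY2 (ENSG00000136158) on 13, SPRED1 (ENSG00000166068) on 15 and ETV4 (ENSG00000175832) on 17. RNA sequencing was done on 8 libraries of LS174T, a human colon adenocarcinoma line. The 4 groups, with 2 libraries each, were doxycycline-treated and untreated cells of a derivative whose inducible short hairpin RNA targets ASCL2, a bHLH transcription factor of intestinal stem cells, and doxycycline-treated and untreated cells of a derivative whose hairpin targets the long non-coding RNA WiNTRLINC1. The WiNTRLINC1 derivative, treated or not, was made from LS174T cells that overexpress the Tet repressor. Treated cells spent 3 days in 1 ug/ml doxycycline, and untreated cells spent 3 days without it. The genotype label of every sample names the opposite target to its title and source name, and the groups here follow the titles. For the WiNTRLINC1 hairpin the study screened clones by RT-PCR, and the file headers carry 1 tag for all libraries of a line. No doxycycline-treated cells without a hairpin were analysed here, so hairpin and doxycycline cannot be told apart within a line.

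Growth factor receptors activate ERK through RAS, RAF and MEK, and active ERK phosphorylates transcription factors that switch on a set of delayed target genes. Part of that set feeds back on the pathway: dual-specificity phosphatases remove the activating phosphates from ERK itself, while Sprouty and SPRED proteins act upstream at the level of receptors, RAS and RAF. ETV4 and ETV5, of the PEA3 subfamily of ETS factors, are transcribed in response to the same signal and bind DNA sites with a GGAA core. In colon cancer cells the transcripts of these genes are widely read as a record of ERK pathway output, and no phosphorylated protein was measured here.

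RefSeq promoter windows on GRCh38.p14, from 250 bases before to 50 after a transcript start, were read for 6 of the genes, with 10 windows in all. The window at the most upstream start is shown for DUSP6 and SPRY4, which responded more in the ASCL2 line, and for SPRY2 and SPRED1, which responded more in the WiNTRLINC1 line. Capitals mark the ETS core, GGAA or its reverse complement TTCC, and positions below count from the start of transcription.
DUSP6 (chr12:89352452-89352751, minus strand): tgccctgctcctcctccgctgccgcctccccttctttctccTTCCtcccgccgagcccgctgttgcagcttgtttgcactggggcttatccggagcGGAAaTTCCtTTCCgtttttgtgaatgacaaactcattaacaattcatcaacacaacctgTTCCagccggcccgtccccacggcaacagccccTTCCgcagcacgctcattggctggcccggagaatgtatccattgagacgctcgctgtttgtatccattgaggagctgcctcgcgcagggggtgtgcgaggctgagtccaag
SPRY4 (chr5:142324198-142324497, minus strand): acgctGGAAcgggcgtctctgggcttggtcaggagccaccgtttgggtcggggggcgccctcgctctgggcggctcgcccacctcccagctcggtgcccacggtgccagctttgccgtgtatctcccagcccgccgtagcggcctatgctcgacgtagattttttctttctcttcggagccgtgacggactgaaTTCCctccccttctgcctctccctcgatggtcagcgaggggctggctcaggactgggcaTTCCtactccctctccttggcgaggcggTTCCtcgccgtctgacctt
SPRY2 (chr13:80341077-80341376, minus strand): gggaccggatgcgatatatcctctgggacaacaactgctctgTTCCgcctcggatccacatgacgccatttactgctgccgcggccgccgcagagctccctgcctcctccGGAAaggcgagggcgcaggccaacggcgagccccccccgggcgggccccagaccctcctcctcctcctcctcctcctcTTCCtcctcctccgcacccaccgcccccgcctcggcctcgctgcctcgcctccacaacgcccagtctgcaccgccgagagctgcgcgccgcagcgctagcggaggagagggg
SPRED1 (chr15:38252586-38252885, plus strand): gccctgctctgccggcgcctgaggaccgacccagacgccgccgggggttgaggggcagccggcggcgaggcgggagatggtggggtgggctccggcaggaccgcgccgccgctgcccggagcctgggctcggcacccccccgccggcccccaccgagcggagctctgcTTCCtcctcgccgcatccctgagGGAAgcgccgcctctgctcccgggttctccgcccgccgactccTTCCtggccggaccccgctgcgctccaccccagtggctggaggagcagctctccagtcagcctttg
The ETS core was in 10 of the 10 windows, and in 95.5% of the 35116 RefSeq windows of the same length, so its presence does not set these genes apart. The longer letters CCGGAA, which contain the core, searched like all motifs here on both strands, were found in the first SPRY2 window, at position -142, and in the second SPRY1 window, at -67, against 17.2% of all windows. The E-box CANNTG, the general motif of bHLH factors, was absent from the DUSP6, SPRY4 and SPRED1 windows shown and present at -219 and -194 in the SPRY2 window. Of the 10 windows 4 held it, against 68.7% of all windows. The AP-1 letters TGANTCA were in 1 of the 10 windows, the second of SPRED2, and in 7.7% of all windows. These matches describe letters only. DUSP4, DUSP5, ETV4 and ETV5 are named without a sequence.

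The deposited value of a gene is a whole number with the pattern of a read count scaled per library and rounded, and deposited totals ran from 21524463 to 22941231 per library. Where a length is used, values were divided by the merged exon length of the gene in GENCODE version 29. The targeted gene ASCL2 had 532 and 586 in treated against 2855 and 3373 in untreated cells of the ASCL2 line, and 805 and 697 in treated against 2540 and 2034 in untreated cells of the WiNTRLINC1 line. It was lower with doxycycline in both lines, 5.55-fold in the ASCL2 line and 3.03-fold in the WiNTRLINC1 line. The difference of these responses was 0.87 on the log2 scale (limma, adjusted p = 0.00206), a larger fall in the line whose titles name ASCL2, and its call ended without the filter (limma, adjusted p = 0.0642) and without the mean-variance trend (0.0877). WiNTRLINC1 itself was not analysed here. All 10 markers of colon epithelium were above 0 in every library, with summed values between 104660 and 167713. Fibroblast, immune and endothelial markers summed to at most 298, 56 and 25 in a library. The fibroblast markers DCN and LUM were at 0 in at least 1 library. The fibroblast marker COL1A1 had 200 and 222 in untreated and 60 and 99 in treated ASCL2-line cells (limma, adjusted p = 0.00251). In untreated WiNTRLINC1-line cells COL1A1 had 20 and 19. PECAM1 was not analysed here. Some epithelial markers moved with the treatment. In the ASCL2 line 7 of 10 were lower and 0 higher, against 12.7% and 13.9% of all genes. Their sums there were 136804 to 149278 in treated and 155195 to 167713 in untreated cells. In the WiNTRLINC1 line 3 were lower and 2 higher, against 9.03% and 9.54% of all genes. The sums there were 104660 to 105175 in treated and 106894 to 111109 in untreated cells. KRT8, the largest part of these sums, did not pass in the ASCL2 line (limma, adjusted p = 0.962) or the WiNTRLINC1 line (limma, adjusted p = 0.873). The part of these markers in the results below was not tested, and in bulk RNA fewer cells of a type and less RNA per cell cannot be told apart.

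Every one of the 10 genes was expressed well above the filter, with values from 177 for SPRY1 to 9832 for DUSP6. Per kilobase of exon, averaged over all libraries, ETV4 had the highest level, 1575, followed by DUSP6 at 953 and SPRY2 at 507 (all deposited values per kilobase). SPRED2 was at 345, DUSP4 at 256, SPRY4 at 223, DUSP5 at 178, ETV5 at 162 and SPRED1 at 121, and SPRY1 was lowest at 58.6. The order was not the same in every group. DUSP6 stood at 2031 per kilobase in treated and 951 in untreated cells of the ASCL2 line, and ETV4 at 1235 in treated and 1300 in untreated cells. In the WiNTRLINC1 line DUSP6 stood at 504 per kilobase in treated and 327 in untreated cells, and ETV4 at 1933 in treated and 1830 in untreated cells, so that ETV4 was the higher of the pair in every group but treated ASCL2-line cells. SPRY2, at 693 in treated and 424 in untreated WiNTRLINC1-line cells, stood above DUSP6 in that line. SPRED1, at 149 in treated and 89.3 in untreated WiNTRLINC1-line cells, stood above DUSP5, at 112 in treated and 75.3 in untreated cells.

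In each line taken separately, doxycycline was followed by higher levels of most of these genes, and none fell past the threshold. In the ASCL2 line 6 of 10 rose, 0 fell and 4 did not pass, and in the WiNTRLINC1 line 8 rose, 0 fell and 2 did not pass (limma on log2(value + 1), Benjamini-Hochberg adjusted p under 0.05 over the 22100 genes tested). Of all genes tested in the ASCL2 line 26.6% were called. There 13.9% were called higher and 12.7% lower, and the WiNTRLINC1 line had 18.6% called, 9.54% higher and 9.03% lower. The median log2 fold change of the 10 genes was 0.30 (ASCL2 line) and 0.57 (WiNTRLINC1 line), beside medians over all genes of 0.01 in each. DUSP4, DUSP5, DUSP6, SPRY2 and SPRY4, 5 of the 10, rose in both lines, as did 4.19% of all genes, and 1 gene, ETV4, rose in neither. The count of rises in the WiNTRLINC1 line was 5 with no filter on low values and 5 with no mean-variance trend in the fit. In the ASCL2 line the calls of SPRY2 and SPRED2 ended under both settings. Under each of these settings 2 genes, DUSP6 and SPRY4, rose in both lines.

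**Figure D1:**
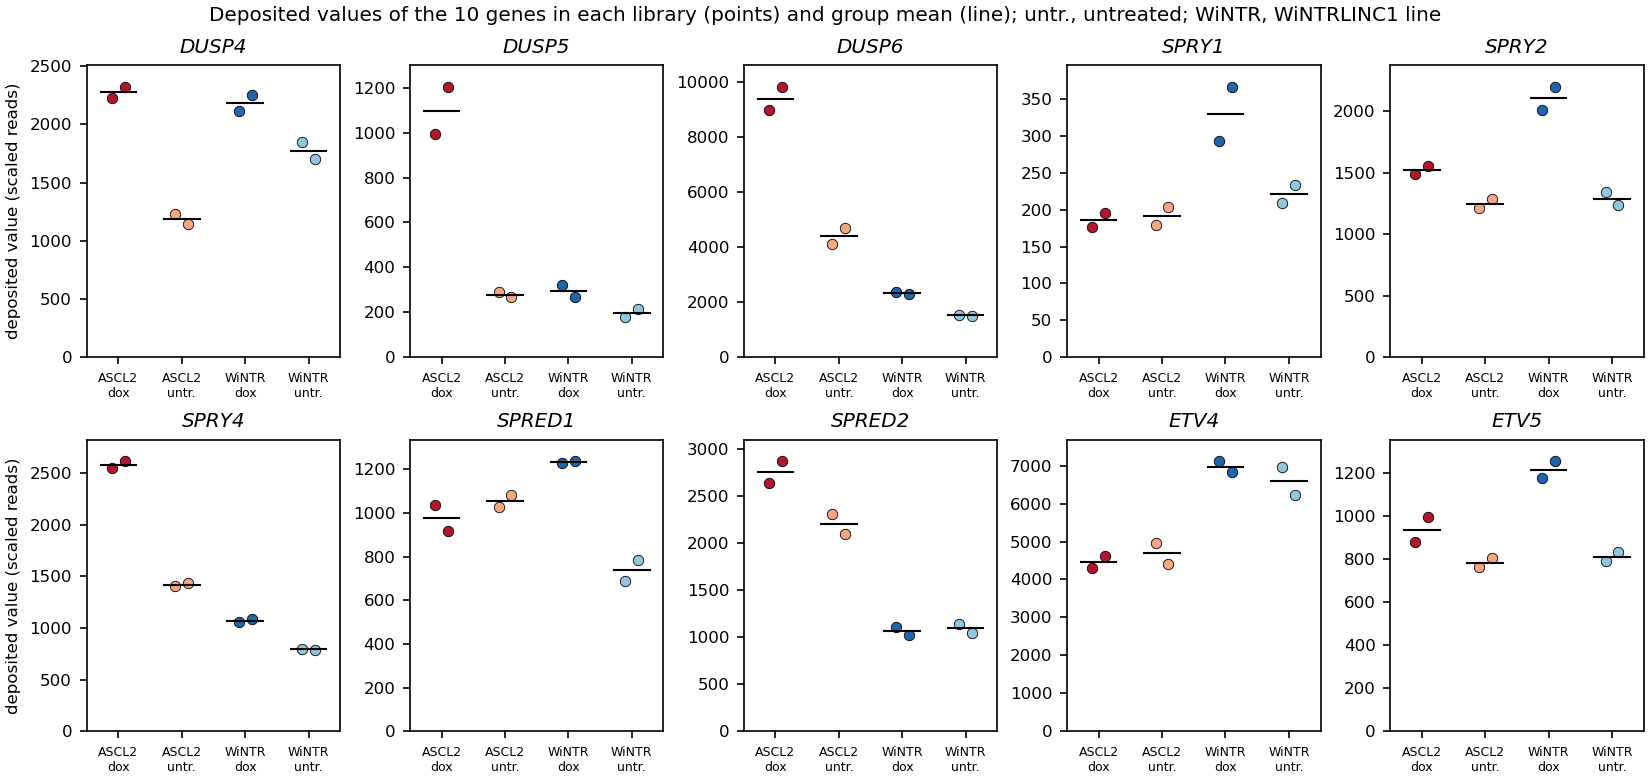
Deposited value (vertical axis, scaled reads, starting at 0) of each of the 10 genes in the 2 libraries of each group (points) with the group mean (line). DUSP5 stands at 994 and 1205 in treated ASCL2-line cells and at or below 319 in all other libraries.

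The phosphatases gave the 3 largest responses, all in the ASCL2 line, and rose in both lines. DUSP5, a nuclear phosphatase specific for ERK, had 994 and 1205 in treated and 288 and 266 in untreated cells of the ASCL2 line. Both treated libraries lay far above both untreated ones, a 3.94-fold rise (1.98 ± 0.139 on the log2 scale, estimate and SE from the fit, here and below, with n = 2 libraries a group, limma, adjusted p = 1.63e-07) that ranked 61 from the top among 22100 genes. DUSP5 in the WiNTRLINC1 line had 319 and 267 in treated and 180 and 214 in untreated cells. The groups again did not overlap, but the rise was 1.48-fold (0.57 ± 0.139, limma, adjusted p = 0.00976). DUSP6, the cytoplasmic ERK phosphatase, had 8979 and 9832 in treated against 4119 and 4694 in untreated cells of the ASCL2 line. It rose 2.14-fold there (1.10 ± 0.0804, limma, adjusted p = 2.45e-07). The WiNTRLINC1 line had 2369 and 2301 in treated against 1533 and 1497 in untreated cells. Those groups too were apart, and the rise was 1.54-fold (0.62 ± 0.0804, limma, adjusted p = 6.66e-05). DUSP4, a nuclear phosphatase that acts on ERK and other MAP kinases, had 2227 and 2323 in treated against 1231 and 1147 in untreated cells of the ASCL2 line. That was a 1.91-fold rise with no overlap (0.94 ± 0.0809, limma, adjusted p = 1.11e-06). DUSP4 in the WiNTRLINC1 line had 2116 and 2254 in treated against 1845 and 1705 in untreated cells, a 1.23-fold rise (0.30 ± 0.0809, limma, adjusted p = 0.0173). Groups did not overlap, with treated higher, for 7 of the 10 genes in the ASCL2 line and for 8 in the WiNTRLINC1 line, against 30.8% and 28.2% of all genes. With treated lower this held for 0 of the 10 in each line, against 29.8% and 26.5% of all genes.

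Treated cells of both lines overlapped in DUSP4, at 2227 and 2323 in the ASCL2 line and 2116 and 2254 in the WiNTRLINC1 line, while their untreated cells did not. For DUSP6 the order of the 4 groups had no overlap between neighbours: treated then untreated ASCL2-line cells, then treated and untreated WiNTRLINC1-line cells. Treated WiNTRLINC1-line cells thus had less DUSP6 than untreated ASCL2-line cells. For DUSP5 those same groups overlapped, at 319 and 267 in treated WiNTRLINC1-line cells and 288 and 266 in untreated ASCL2-line cells. The call of DUSP4 in the WiNTRLINC1 line ended without the second untreated or the second treated library of that line (limma, adjusted p = 0.122 and 0.145), without the filter (0.0618) and without the trend (0.112). The call of DUSP5 there ended without the first untreated or the first treated library (limma, adjusted p = 0.0992 and 0.109), without the filter (0.0742) and without the trend (0.0877).

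Among the Sproutys, which dampen signalling from receptor tyrosine kinases to RAS and RAF, SPRY4 also rose in both lines. It had 2548 and 2619 in treated against 1403 and 1436 in untreated cells of the ASCL2 line, and 1054 and 1092 in treated against 794 and 791 in untreated cells of the WiNTRLINC1 line. The replicates were close and no groups overlapped, and SPRY4 rose 1.82-fold in the ASCL2 line (0.86 ± 0.0780, limma, adjusted p = 1.67e-06), while the rise in the WiNTRLINC1 line was 1.35-fold (0.44 ± 0.0780, limma, adjusted p = 0.00109). SPRY2 was highest in treated WiNTRLINC1-line cells, then in treated ASCL2-line cells, and the untreated groups of the lines overlapped. It had 2010 and 2199 in treated against 1341 and 1234 in untreated cells of the WiNTRLINC1 line, or 1.63-fold (0.71 ± 0.0841, limma, adjusted p = 3.08e-05). In the ASCL2 line SPRY2 had 1490 and 1553 in treated against 1213 and 1283 in untreated cells, which was 1.22-fold with no overlap (0.29 ± 0.0841, limma, adjusted p = 0.0205). SPRY1, the least abundant of the 10, had 294 and 367 in treated against 209 and 234 in untreated cells of the WiNTRLINC1 line, a 1.48-fold rise (0.57 ± 0.153, limma, adjusted p = 0.0169). In the ASCL2 line its groups overlapped, at 177 and 195 in treated and 179 and 204 in untreated cells, and the log2 fold change was -0.04 with a 95% interval from -0.37 to 0.29 (limma, adjusted p = 0.879).

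The SPRED proteins, which recruit the RAS GTPase-activating protein neurofibromin to the membrane, each passed in 1 line. SPRED1 had 1228 and 1238 in treated against 689 and 786 in untreated cells of the WiNTRLINC1 line, a 1.67-fold rise (0.74 ± 0.0960, limma, adjusted p = 6.69e-05). Both ASCL2-line groups lay between these, above untreated and below treated WiNTRLINC1-line cells. In the ASCL2 line its groups overlapped, with 1039 and 919 in treated and 1028 and 1083 in untreated cells (-0.11, 95% interval -0.32 to 0.09, limma, adjusted p = 0.443). SPRED2 had 2637 and 2870 in treated against 2313 and 2100 in untreated cells of the ASCL2 line, a 1.25-fold rise without overlap (0.32 ± 0.0875, limma, adjusted p = 0.0137). In the WiNTRLINC1 line its groups overlapped, with 1107 and 1021 in treated and 1139 and 1047 in untreated cells (-0.04, 95% interval -0.23 to 0.15, limma, adjusted p = 0.828).

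Of these calls, SPRY4 and SPRED1, and SPRY2 in the WiNTRLINC1 line, held in each of the 18 alternatives. In the ASCL2 line the call of SPRY2 ended without the first untreated, first treated or second treated library (limma, adjusted p = 0.113, 0.0606 and 0.131), without the filter (0.0639) and without the trend (0.103), and that of SPRED2 without the second untreated or second treated library (limma, adjusted p = 0.115 and 0.137), the filter (0.0662) or the trend (0.0985). The call of SPRY1 in the WiNTRLINC1 line ended without the first untreated or second treated library (limma, adjusted p = 0.119 and 0.188), the filter (0.0698) or the trend (0.0751).

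Of the ETV factors, ETV5 rose in the WiNTRLINC1 line and ETV4 passed in neither. ETV5, an ETS activator, had 1177 and 1257 in treated against 790 and 834 in untreated cells of the WiNTRLINC1 line. The groups were well apart, a 1.5-fold rise (0.58 ± 0.0934, limma, adjusted p = 0.000441). In the ASCL2 line ETV5 had 879 and 996 in treated against 764 and 805 in untreated cells. These groups did not overlap either, but the difference did not pass (0.25, 95% interval 0.05 to 0.45, limma, adjusted p = 0.0579). With a replicate block it did (limma, adjusted p = 0.0419), as it did among genes with a mean of at least 100 (0.0396). ETV4, its close relative and the most abundant of the 10 per kilobase, had 4296 and 4616 in treated against 4970 and 4408 in untreated cells of the ASCL2 line. In the WiNTRLINC1 line it had 7121 and 6821 in treated against 6966 and 6238 in untreated cells. Its groups overlapped within both lines, every WiNTRLINC1-line library lay above every ASCL2-line library, and the log2 fold changes were -0.07 in the ASCL2 line (95% interval -0.25 to 0.10, limma, adjusted p = 0.572) and 0.08 in the WiNTRLINC1 line (-0.09 to 0.26, limma, adjusted p = 0.576).

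**Figure D2:**
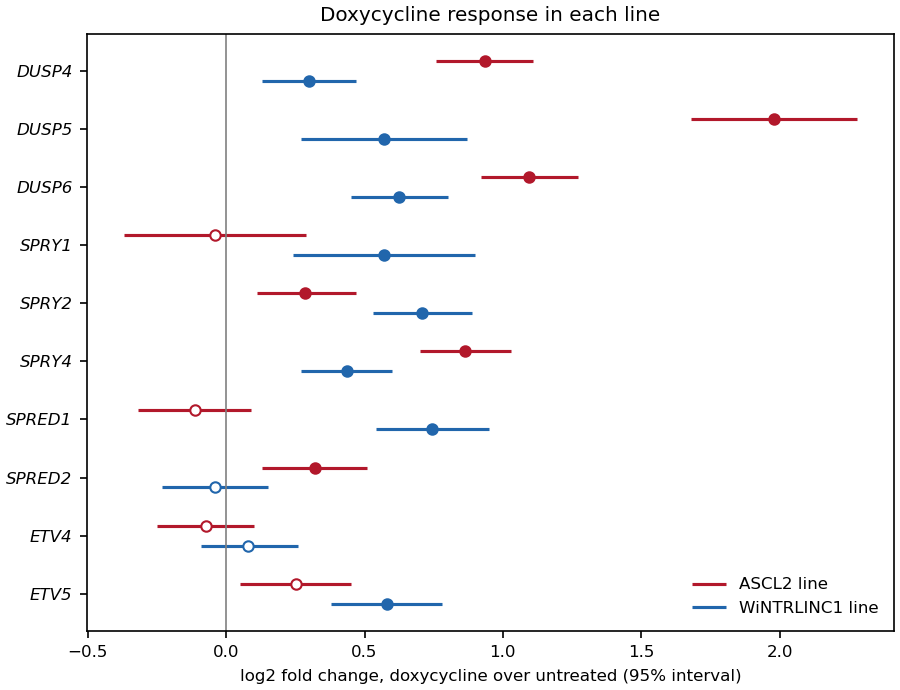
Log2 fold change of each gene, doxycycline over untreated (horizontal axis), with its 95% interval, in the ASCL2 line (red) and the WiNTRLINC1 line (blue). Filled points passed the adjusted p of 0.05. DUSP5 in the ASCL2 line, at 1.98, lies farthest to the right, and ETV4 lies near 0 in both lines.

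The responses of the lines were then compared with each other by the interaction term, WiNTRLINC1 line minus ASCL2 line. It passed for 6 of 10 genes, 4 with a smaller and 2 with a larger response in the WiNTRLINC1 line, while 7.6% of all genes were called lower and 7.39% higher in this comparison, 15% in all. The phosphatases and SPRY4 responded less in the WiNTRLINC1 line. The difference was -1.41 ± 0.197 on the log2 scale for DUSP5 (limma, adjusted p = 0.000177), -0.64 ± 0.114 for DUSP4 (limma, adjusted p = 0.00142), -0.47 ± 0.114 for DUSP6 (limma, adjusted p = 0.0107) and -0.43 ± 0.110 for SPRY4 (limma, adjusted p = 0.0158). SPRED1 and SPRY2 responded more there, by 0.85 ± 0.136 (limma, adjusted p = 0.000527) and 0.42 ± 0.119 (limma, adjusted p = 0.0254). The intervals of SPRY1 (0.15 to 1.07) and ETV5 (0.05 to 0.61) lay above 0 and that of SPRED2 (-0.62 to -0.09) below it, but after adjustment these did not pass (limma, adjusted p = 0.0742, 0.117 and 0.0672). ETV4 had an interval from -0.10 to 0.40. The differences of DUSP5 and SPRED1 held in each alternative, while without the second treated ASCL2-line library the counts were 2 smaller and 1 larger response. That of DUSP4 ended without the trend (limma, adjusted p = 0.0543). That of SPRY4 ended without the trend (limma, adjusted p = 0.0847), without the second treated library of the ASCL2 line (0.0708) and without the first treated library of the WiNTRLINC1 line (0.0629). That of DUSP6 ended without the filter (limma, adjusted p = 0.0729), the trend (0.125), or the first untreated (0.0515) or second treated (0.0668) library of the ASCL2 line. That of SPRY2 ended without the filter (limma, adjusted p = 0.0881), the trend (0.138), the second untreated (0.078), first treated (0.0957) or second treated (0.0586) library of the ASCL2 line, or the second untreated (0.0896) or second treated (0.115) library of the WiNTRLINC1 line.

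Before any doxycycline 7 of the 10 genes differed between the lines. That share was not far above the 55.2% of all genes called, 25.7% higher and 29.5% lower in the WiNTRLINC1 line. These libraries are also the controls of the comparisons above. Libraries of the lines did not overlap for 3 genes that were higher and 5 that were lower in the WiNTRLINC1 line. These counts were near the shares of all genes, 35.7% and 40%. DUSP6 was the gene farthest apart, with 1533 and 1497 in the untreated WiNTRLINC1 line against 4119 and 4694 in the untreated ASCL2 line, or 2.9-fold lower (-1.54 ± 0.0804, limma, adjusted p = 8.93e-10). SPRED2 had 1139 and 1047 in the WiNTRLINC1 line against 2313 and 2100 in the ASCL2 line, 2.02-fold lower (limma, adjusted p = 1.75e-07). SPRY4 had 794 and 791 in the WiNTRLINC1 line against 1403 and 1436 in the ASCL2 line, 1.79-fold lower (limma, adjusted p = 3.75e-07). All 3 of these genes were thus well apart. SPRED1 had 689 and 786 in the WiNTRLINC1 line against 1028 and 1083 in the ASCL2 line, 1.43-fold lower (limma, adjusted p = 0.00032). DUSP5 was 1.41-fold lower (limma, adjusted p = 0.00743), and its call ended without the first untreated library of either line (limma, adjusted p = 0.0789 for the WiNTRLINC1 line and 0.0525 for the ASCL2 line). DUSP4 and ETV4 ran the other way. DUSP4 had 1845 and 1705 in the WiNTRLINC1 line against 1231 and 1147 in the ASCL2 line, 1.49-fold higher (limma, adjusted p = 2.49e-05). ETV4 had 6966 and 6238 in the WiNTRLINC1 line against 4970 and 4408 in the ASCL2 line, 1.41-fold higher (limma, adjusted p = 0.00012). SPRY1, SPRY2 and ETV5 did not pass, with log2 differences of 0.21, 0.04 and 0.05 and 95% intervals of -0.12 to 0.54, -0.14 to 0.22 and -0.15 to 0.25.

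**Figure D3:**
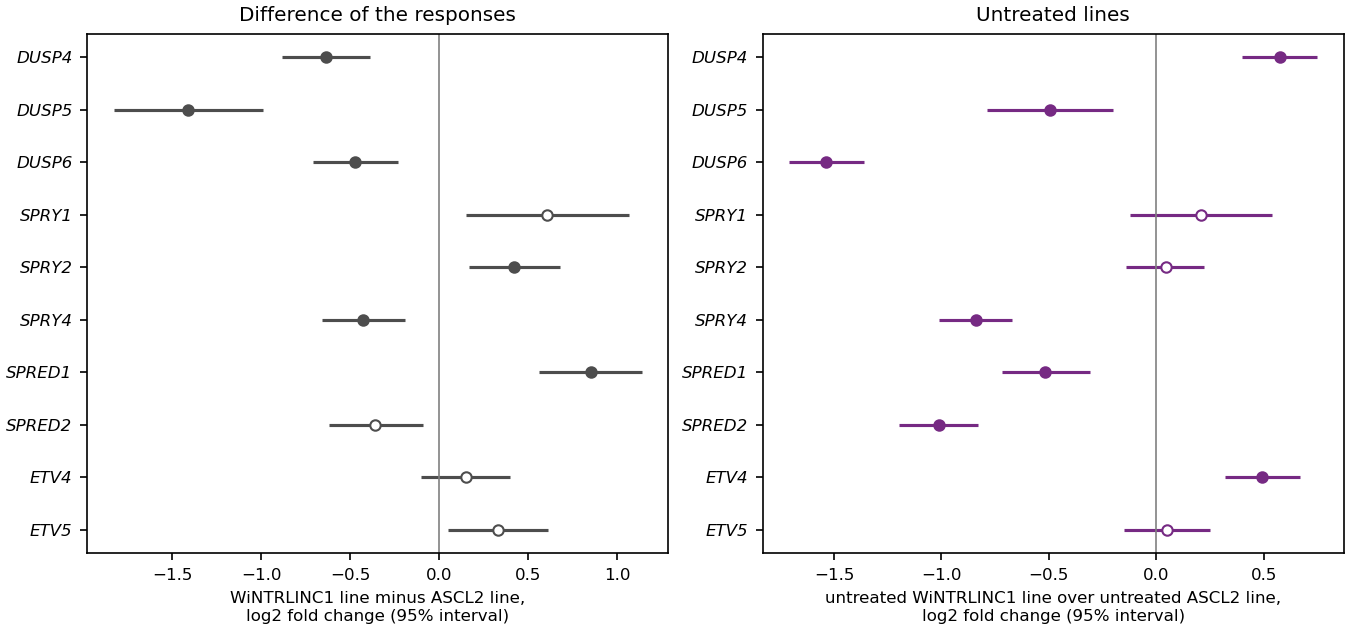
Log2 differences with 95% intervals for the WiNTRLINC1 line response minus the ASCL2 line response (left) and for the untreated WiNTRLINC1 line over the untreated ASCL2 line (right). Filled points passed the adjusted p of 0.05. DUSP5 at -1.41 is lowest on the left, and DUSP6 at -1.54 is lowest on the right.

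The profiles of the 10 genes over the 8 libraries were compared by the root mean square distance of their centred log2 values. The nearest pair was SPRY2 and ETV5, at 0.077, and the next was SPRY1 and ETV5, at 0.195. Among 13938 genes with a symbol and a mean value of at least 50, those nearest to DUSP6 were ANPEP (0.083), CCDC68 (0.103) and B4GALT6 (0.134), against a median distance of 0.996. Nearest to SPRY4 were DNAJC15 (0.070), KCNH2 (0.074) and ASAP2 (0.080), with a median of 0.668, and nearest to ETV4 were EIF3I (0.034), ESYT1 (0.041) and INTS11 (0.041), with a median of 0.43. These distances describe 8 libraries in 4 groups.

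Other genes of the pathway were read from lists. Of 14 tested genes among 15 other ERK outputs, 10 were higher and 0 lower with treatment in the ASCL2 line (median log2 fold change 0.62), while 7 were higher and 1 lower in the WiNTRLINC1 line (median 0.28), beside 13.9% higher and 12.7% lower of all genes in the ASCL2 line and 9.54% higher and 9.03% lower in the WiNTRLINC1 line. EGR1, an immediate early zinc finger factor, had 2489 and 3268 in treated against 569 and 808 in untreated cells of the ASCL2 line, and 74 and 93 in treated against 103 and 132 in untreated cells of the WiNTRLINC1 line. Its groups were apart in the ASCL2 line, 4.2-fold higher with treatment (limma, adjusted p = 1.44e-06), while in the WiNTRLINC1 line it did not pass (limma, adjusted p = 0.0835), and the interaction was -2.56 (limma, adjusted p = 1.13e-05). The cyclin CCND1 had 27397 and 28378 in treated against 10689 and 10423 in untreated cells of the ASCL2 line, and 15084 and 16430 in treated against 10874 and 11016 in untreated cells of the WiNTRLINC1 line. It rose in both, with a difference of -0.88 between the responses (limma, adjusted p = 2.81e-05). FOSL1, an AP-1 subunit, rose with log2 fold changes of 1.59 in the ASCL2 line (limma, adjusted p = 4.54e-08) and 1.36 in the WiNTRLINC1 line (limma, adjusted p = 3.01e-07). The urokinase receptor PLAUR rose in both, by 1.10 in the ASCL2 line (limma, adjusted p = 3.6e-05) and 0.94 in the WiNTRLINC1 line (limma, adjusted p = 0.000208). The Eph receptor EPHA4 rose by 1.06 in the WiNTRLINC1 line (limma, adjusted p = 0.000222) and did not pass in the ASCL2 line (limma, adjusted p = 0.242). In untreated cells of the WiNTRLINC1 line 7 of the 14 were lower than in those of the ASCL2 line and 0 higher. Of all genes 29.5% were lower and 25.7% higher in that comparison. JUNB, another AP-1 subunit, had 429 and 384 in the untreated WiNTRLINC1 line against 4169 and 4187 in the untreated ASCL2 line, 10.3-fold lower (limma, adjusted p = 5.2e-12).

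Of 10 close relatives of these genes, 4 were higher and 1 lower in treated ASCL2-line cells, and 2 higher and 1 lower in treated WiNTRLINC1-line cells. The share lower, 1 of 10, was near that of all genes in each line (12.7% and 9.03%). Genes called higher made up 13.9% (ASCL2 line) and 9.54% (WiNTRLINC1 line) of all those tested. DUSP2, an inducible nuclear phosphatase, had 554 and 571 in treated against 287 and 210 in untreated cells of the ASCL2 line, and 589 and 580 in treated against 348 and 282 in untreated cells of the WiNTRLINC1 line. Treated and untreated libraries did not overlap within either line, and it rose with log2 fold changes of 1.19 in the ASCL2 line (limma, adjusted p = 3.02e-05) and 0.90 in the WiNTRLINC1 line (limma, adjusted p = 0.000506). DUSP8, which acts mainly on JNK and p38, rose in the ASCL2 line (1.16, limma, adjusted p = 4.62e-05), with a difference between the responses of -1.02 (limma, adjusted p = 0.0042). DUSP16, which acts mainly on JNK, fell in both lines. Its log2 fold change was -0.65 in the WiNTRLINC1 line (limma, adjusted p = 6.82e-05) and -0.34 in the ASCL2 line (limma, adjusted p = 0.00772). The difference of these responses did not pass (limma, adjusted p = 0.0985). DUSP9, a relative of DUSP6, had 19 and 13 in the untreated WiNTRLINC1 line against 199 and 168 in the untreated ASCL2 line, a log2 difference of -3.46 (limma, adjusted p = 3.46e-08).

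Upstream, 9 of 16 tested receptors and ligands (of 17 listed) were higher and 0 lower in treated ASCL2-line cells (median 0.52), and 6 were higher and 1 lower in treated WiNTRLINC1-line cells (median 0.20). Of all genes 13.9% were higher and 12.7% lower in the ASCL2 line, and 9.54% higher and 9.03% lower in the WiNTRLINC1 line. EREG, a ligand of the EGF receptor, had 4274 and 4797 in treated against 839 and 1068 in untreated cells of the ASCL2 line, and 1277 and 1464 in treated against 1159 and 1148 in untreated cells of the WiNTRLINC1 line. The rise in the ASCL2 line was 2.26 on the log2 scale (limma, adjusted p = 4.54e-09), EREG did not pass in the WiNTRLINC1 line (limma, adjusted p = 0.146), and the responses differed by -2.01 (limma, adjusted p = 1.1e-06). TGFA, another such ligand, rose in both lines, by 1.23 in the ASCL2 line (limma, adjusted p = 3.15e-06) and 0.84 in the WiNTRLINC1 line (limma, adjusted p = 0.000148) on the log2 scale. MET, the receptor of hepatocyte growth factor, had 7783 and 7851 in treated against 4453 and 4196 in untreated cells of the ASCL2 line, and 930 and 995 in treated against 1518 and 1667 in untreated cells of the WiNTRLINC1 line. With treatment MET was higher in ASCL2-line cells and lower in WiNTRLINC1-line cells, with a difference of -1.58 (limma, adjusted p = 5.94e-07). Among 20 genes of the cascade from RAS adaptors to ERK, 5 were higher and 4 lower in treated ASCL2-line cells, and 2 higher and 2 lower in treated WiNTRLINC1-line cells, with medians of 0.07 and -0.02. In the WiNTRLINC1 line these shares were near those of all genes, 9.54% higher and 9.03% lower. In the ASCL2 line those of all genes were 13.9% higher and 12.7% lower. NRAS fell by 0.73 (limma, adjusted p = 3e-05) and MAPK3, which encodes ERK1, by 0.55 (limma, adjusted p = 0.000414) on the log2 scale in the ASCL2 line, and HRAS rose by 0.57 in the WiNTRLINC1 line (limma, adjusted p = 0.000239).

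**Figure D4:**
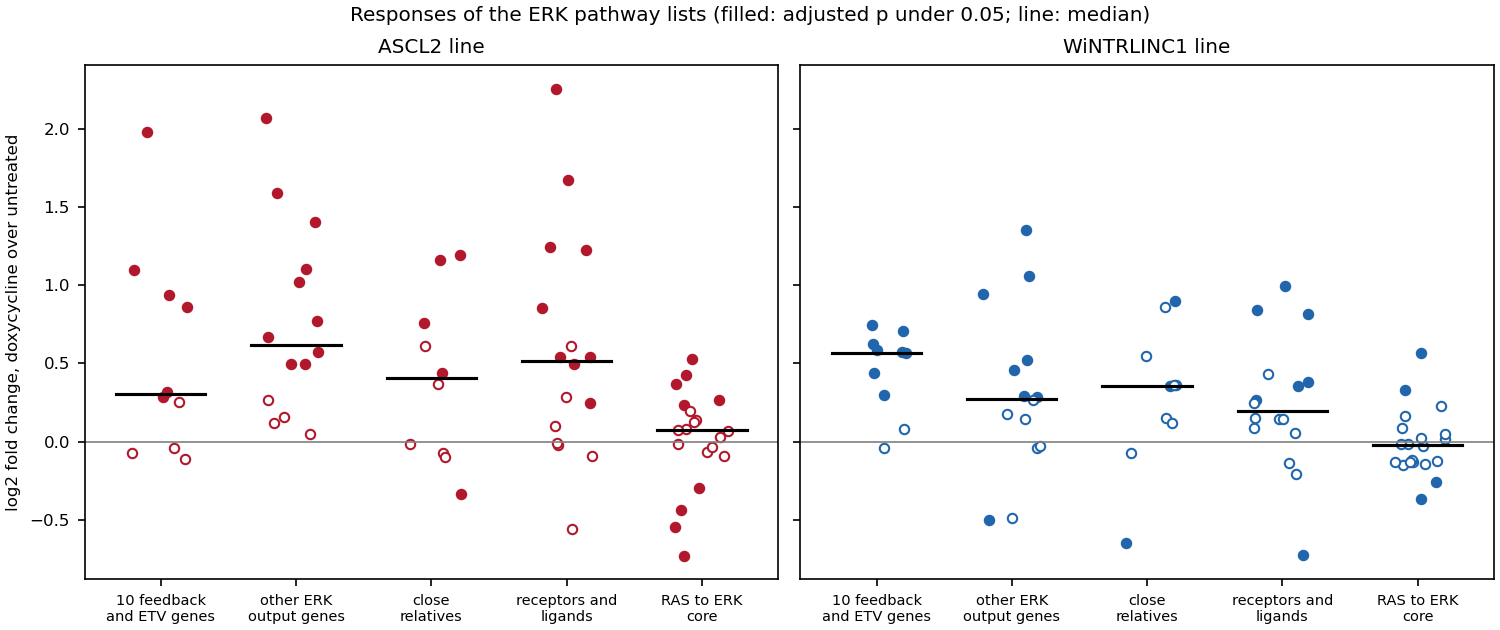
Log2 fold change, doxycycline over untreated (vertical axis), of each tested gene in the 10 feedback and ETV genes and in 4 other lists of the ERK pathway, in the ASCL2 line (left) and the WiNTRLINC1 line (right), with the median of each list as a line. Filled points passed the adjusted p of 0.05. The median of the RAS to ERK core lies near 0 in both lines, at 0.07 and -0.02.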

How the data were processed

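RNA was sequenced on the Ion Proton after RNase III fragmentation, per the labels' protocols. The submitters' processing notes name cutadapt, TopHat2 2.0.9, Cufflinks, DESeq and the builds hg19, GRCh37 and mm9, with no role. No source here states the counting program or whether it used strand. The deposited score of a gene, 1 file per library, is a whole number, but in 7 of 8 libraries some low whole numbers were empty or piled up, as scaled and rounded read counts are, so no count model was used. Deposited totals ran from 21524463 to 22941231, and unscaled depth is unknown. Replicate pairs differed beyond counting noise (chi-square per degree of freedom 5.06 to 7.26). The labels do not say that replicates were separate cultures, so p-values measure the spread between these libraries, which may be technical.

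Symbols were assigned to 39501 of 57736 identifiers, and the rest held 2.34% of the values. A gene was kept if 2 or more libraries had a value of 10 or more (22100 genes). limma 3.58.1 in R 4.3.3 was fitted to log2(value + 1) over all 8 libraries and 4 groups, with a mean-variance trend and no covariates (4 residual and 10.5 prior degrees of freedom), with Benjamini-Hochberg adjustment over all genes tested and calls at 0.05. Fold changes are on the log2(value + 1) scale. The code was tested on simulated data. Figures and sequences were handled in Python 3.11.15.

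Alternatives were other pseudocounts, filters and scalings, no trend, a robust prior, a replicate block, each line alone and each library left out. The 10 genes and all lists were chosen with earlier results of these data known. Named were the 10 genes, ASCL2, up to 4 called genes per list and comparison with the smallest adjusted p, and the 3 genes nearest in profile to DUSP6, SPRY4 and ETV4. Some items are not reported here.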

Additional observations from a re-analysis of the deposited data

Results flagged for a closer look

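The doxycycline responses of 6 of the 10 genes differed between the lines by the interaction term (WiNTRLINC1 line minus ASCL2 line, log2 scale, n = 2 libraries per group), the test that marked them for a closer look, as did those of 15% of all genes tested. The difference was -1.41 for DUSP5, -0.64 for DUSP4, -0.47 for DUSP6 and -0.43 for SPRY4, each of which rose in both lines and rose less in the WiNTRLINC1 line. It was 0.42 for SPRY2, which rose in both lines and rose more in the WiNTRLINC1 line, and 0.85 for SPRED1, which passed the test in the WiNTRLINC1 line and had a log2 fold change of -0.11 in the ASCL2 line. Of the 17 alternatives with both lines, the differences of DUSP5 and SPRED1 held in all, DUSP4 in 16, SPRY4 in 14, DUSP6 in 13 and SPRY2 in 10. The rises of DUSP4 and DUSP5 in the WiNTRLINC1 line each held in 14 of 18 alternatives, and that of SPRY2 in the ASCL2 line in 13.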

How the results depend on the processing

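Counts of called genes among the 10 kept within 1.5 times under every alternative except the following. With no filter the count of rises in the WiNTRLINC1 line was 5 and that of larger responses there 1. Without the mean-variance trend these were 5 and 1, and smaller responses numbered 1. The count of genes that rose in both lines, 5, was 2 under either setting. Its alternatives were chosen after seeing the data. Larger responses also numbered 1 without the second untreated or second treated library of either line, and without the first treated ASCL2-line library. Smaller responses numbered 2 without the second treated ASCL2-line library. Leaving out each library in turn gave 4 to 6 rises in the ASCL2 line, 6 to 8 in the WiNTRLINC1 line, 4 to 5 in both, 1 to 2 larger and 2 to 4 smaller responses in the WiNTRLINC1 line, and 2 higher and 4 to 5 lower genes between untreated lines, with 0 falls in either line. The sign turned in differences that had not passed: ETV4 (-0.158 to 0.015 over the libraries left out, above 0 without the first untreated one) and SPRY1 (-0.134 to 0.053, with 0.053 without the second untreated and 0.029 without the first treated library) in the ASCL2 line, SPRED2 in the WiNTRLINC1 line (-0.099 to 0.022, with 0.022 without its first untreated and 0.02 without its second treated library), and SPRY2 between untreated lines (-0.016 to 0.104, below 0 without the first untreated WiNTRLINC1-line library). The cause was not tested. Of 27 called results of the 10 genes 17 held in every alternative and 44 of 63 of the named list genes did. Deviations of same-numbered libraries correlated between -0.052 and 0.105. With 2 libraries a group these values cannot show whether replicate numbers mark a pairing. A replicate block gave 7 rises in the ASCL2 line, 8 rises in the WiNTRLINC1 line, and 3 larger and 4 smaller responses there, adding ETV5 in the ASCL2 line and the difference of SPRY1 (limma, adjusted p = 0.0474). The difference of SPRED2 passed among genes with a mean of at least 100 (limma, adjusted p = 0.0454). Over all genes, calls in the ASCL2 line numbered 5884, against 3410 without the trend and 3665 without its second treated library. In the WiNTRLINC1 line they numbered 4104, against 2395 without the filter, 1873 without the trend, 2709 without its first untreated library and 2706 and 2398 without its first and second treated libraries. Differences of responses numbered 3314, against 1914 without the filter and 1313 without the trend. Rescaling by median of ratios or by quantiles changed no call of the 10 genes.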
